A study of Mus musculus with 4 samples.

Results

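The genes described are those of the activator protein AP-1 and its close relatives: the Fos family (Fos, Fosb, Fosl1, Fosl2), the Jun family (Jun, Junb, Jund), the stress-induced repressor gene Atf3, Batf and the small Maf gene Maff. They were chosen by name, and every probe whose RefSeq transcript belongs to 1 of these genes was read: 11 probes for 10 genes, of 55619 probes for 37042 genes or unnamed transcripts on the arrays. RNA came from primary chondrocytes of 6-day-old C57BL/6J mice, either Rela fl/fl controls, which carry the floxed Rela allele without Cre, or Prrx1-Cre;Rela fl/fl littermates (labelled Rela CKO). Each genotype was cultured with or without TNF-α at 10 ng/mL for 3 days and hybridised to 1 one-colour array per condition, 4 arrays in all, to ask which genes TNF-α changed and which of these changes depended on Rela, the p65 subunit of NF-κB. All 4 groups share the floxed allele and the culture period. The Prrx1 promoter drives Cre in limb bud mesenchyme, from which limb cartilage forms, so cells in the culture that come from another lineage keep Rela. How many animals went into each array is not given in the sources used here.

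AP-1 is a dimer of basic leucine zipper proteins. Fos proteins need a partner, most often a Jun protein, Jun proteins also pair with each other, and the dimers bind a short palindromic DNA element found in the promoters of matrix metalloproteinase and cytokine genes. TNF-α reaches AP-1 through the MAP kinases, which switch on transcription of Fos, Jun and Atf3 within minutes to hours and phosphorylate the Jun protein, while in cartilage AP-1 is known for its part in collagenase expression and in the growth of chondrocytes and osteoblasts. The arrays read mRNA after 3 days of TNF-α and hold no earlier time.

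Promoter letters are shown for the members with a copy of a cyclic AMP or AP-1 type element in the 250 bases before the annotated start, because Jun and Maff are among the members that moved most. In RefSeq promoter windows (GRCm38.p6, 250 bases before to 50 after a start), 9 of the 10 genes had 11 windows. Fosl1 had no window, so it was not searched and none of the element counts cover it. The AP-1 element TGANTCA, searched on both strands, was in none of these genes and in 8.97% of all 27025 genes with a window. The cyclic AMP element TGACGTCA was in 1 member gene (2.03% of all genes), and its variant TGACATCA, which in Jun is a long-known site for Jun and Atf2 dimers, was in 2 member genes (4.18% of all genes). The variant has no overlap with the other elements in these windows. The 3 stretches that hold a copy are given as the 150 bases before the start site, 5′ to 3′ on the strand of the gene, with the matched elements in capitals. The Jun stretch is chr4:95052223-95052372 on the minus strand, and the Maff stretches before the middle and the most downstream of its 3 annotated starts are chr15:79347370-79347519 and chr15:79348252-79348401 on the plus strand.
Jun: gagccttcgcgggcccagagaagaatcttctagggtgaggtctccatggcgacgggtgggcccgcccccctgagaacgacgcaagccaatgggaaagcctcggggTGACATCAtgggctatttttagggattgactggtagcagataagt
Maff, middle start: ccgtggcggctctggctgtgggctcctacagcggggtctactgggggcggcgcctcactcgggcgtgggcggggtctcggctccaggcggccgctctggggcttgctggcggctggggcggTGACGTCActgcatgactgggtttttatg
Maff, most downstream start: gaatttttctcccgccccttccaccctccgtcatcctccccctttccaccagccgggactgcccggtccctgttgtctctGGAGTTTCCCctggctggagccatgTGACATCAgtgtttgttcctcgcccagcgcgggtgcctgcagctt
In Jun the element began 45 bases before the start. In Maff, TGACGTCA began 29 bases before the middle start and TGACATCA 45 bases before the most downstream one. The other capitals in the last stretch, beginning 70 bases before the start, are a match to the NF-κB consensus, which was found in 4 of the 9 member genes (Fos, Fosb, Fosl2 and Maff) and in 5.14% of all genes; in Fos, Fosb and Fosl2 it lay 214, 188 and 182 bases before the start, and in Fosl2 a copy at 181 bases overlapped it. The CArG box, the site of serum response factor, was in none of the windows of the member genes and in 1.81% of all genes. The windows end 250 bases before the start, so sites further upstream, in Fos or any other gene, were not searched. Counted by window, TGANTCA was in 7.81%, TGACGTCA in 1.79%, TGACATCA in 3.62%, the NF-κB consensus in 4.51% and the CArG box in 1.63% of all 32851 windows. These matches are letters only, and the arrays measured no binding.

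Signals are given relative to the array's 75th percentile of transcript spots, which is set to 1, and differences are on the log2 scale. With 1 array per condition no difference has a replicate check or a p-value. The only spread that could be measured was technical: over 243 probes printed 10 times on every array, the SD of a difference between a pair of arrays was 0.13 for a single spot, and for each member 2 SD was taken from repeated probes of like brightness. That spread leaves out all variation between cultures. A gene was called changed at a log2 difference of 1 or more, with the brighter array well above background. A change of all cells and a change in the share of 1 cell type cannot be told apart in RNA of whole cultures, and neither can fewer cells and less RNA per cell.

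A few facts of the 4 arrays bear on what follows. The 75th percentile lay between 590 and 634 intensity units, between 50.9% and 58.1% of probes were well above background, and no spot was saturated. Rela, the targeted gene, had signals of 28.3 and 34.7 on the control arrays without and with TNF-α and 33.9 and 40.2 on the arrays labelled CKO, so its probe was not lower where the deletion is labelled. Whether that probe lies in the deleted part is not given, and the arrays are therefore called by their label. Xist was 0.715 and 0.752 on the control arrays and not well above background on the CKO arrays, so the sex of the donor animals and the genotype cannot be told apart. All 12 chondrocyte markers listed, among them Col2a1 and Acan, were well above background on the 4 arrays, but none of the 12 was higher on the CKO array without TNF-α than on its control (median −0.56; Matn1 −1.85, Snorc −1.33), and 11 of 12 were lower with TNF-α (median −0.38; Col2a1 0.00). The bone matrix gene Ibsp ran the other way (1.13 and 0.97), the leukocyte gene Ptprc and the endothelial genes Cdh5 and Tek were not well above background on any array while Csf1r (2.79 to 3.05) and Kdr (17.5 to 20.5) were detected on all 4, and no muscle marker was well above background on all 4. Of 7 fibroblast markers, 2 were called lower on the CKO array without TNF-α (Thy1, −1.59; Dpt, −1.62, with a patch spot) and 1 with it (Dpt, −1.16). Of 7 leukocyte markers measured, 6 could be compared, and without TNF-α 2 were lower on the CKO array (Lyz2, −2.11, with a patch spot; Tyrobp, a bound of −1.61) and 1 was higher (Adgre1, 2.87, with a patch spot), while none was called with TNF-α. The part of these differences in the values of the AP-1 genes was not tested. Local bright patches (3 or more of a spot's 54 neighbours at 2-fold or more their brightness on every other array) took in 10.7%, 7.17% and 9.46% of spots on the arrays other than CKO with TNF-α, where they took in 1.04%.

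Of the 10 genes, 7 were brightest on the array labelled CKO with TNF-α (Jund and Atf3 by less than 2 SD). Among these Fosl1 and Maff had the largest TNF-α difference, at about 2 times their level on the CKO array without it. The share of all genes brightest on that array with TNF-α is not given here. None of the 10 was called changed by TNF-α in Rela fl/fl cells, 2 were called higher with TNF-α on the CKO arrays, none differed by the limit between the genotypes without TNF-α, and Fosl1 was called higher on the CKO array when both genotypes had TNF-α. Fos and Jund, by contrast, kept within 0.20 of their level in all 4 comparisons. All 10 genes were measured well above background on all 4 arrays, so all 10 enter every count.

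**Figure D1:**
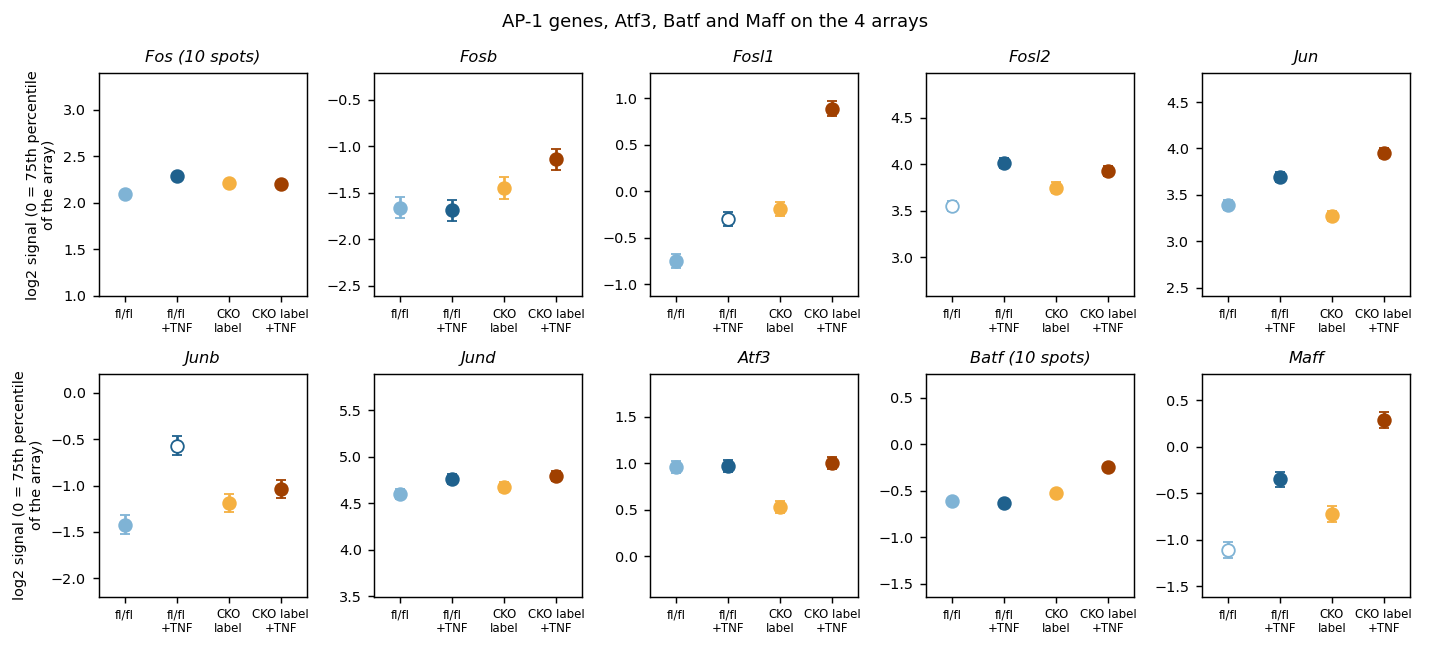
Log2 signal of the 10 genes (y axis, 0 = 75th percentile of the array, the same span in every panel) on the 4 arrays (x axis); bars are 1 technical SD of a single array from repeated probes of like brightness, and open circles are single spots inside a bright patch. Fosl1 and Maff climb to their highest level on the CKO array with TNF-α, Junb is highest on the control array with TNF-α, and Fos and Jund are nearly level.

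In the Fos family, Fos itself, the immediate early gene that gave the family its name, was read by 10 spots and had signals of 4.29 and 4.89 on the control arrays without and with TNF-α and 4.61 and 4.59 on the CKO arrays. The control array with TNF-α was highest and the one without was lowest. The differences were 0.19 for TNF-α in control cells, −0.01 for TNF-α on the CKO arrays, 0.11 between genotypes without TNF-α and −0.09 with it, and the spots of the probe scattered with an SD of 0.03 to 0.06 on each array. The error of the mean of 10 spots does not cover the scaling of a whole array. Another scaling moved the median of all genes from 0.06 to −0.05 in the TNF-α comparison on the CKO arrays, where Fos ranged from −0.12 to −0.01. Between genotypes Fos ranged over the scalings from 0.11 to 0.15 without TNF-α and from −0.16 to −0.09 with it. The size of differences this small thus depends on the scaling.

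Fosb, like Fos an activator with a long C-terminal transactivation region, was dim, at 0.316, 0.310, 0.365 and 0.455 in the same order of arrays. It was highest on the CKO array with TNF-α, 0.55 above the control array with TNF-α and 0.32 above the CKO array without it (2 SD, 0.31). Relative to the median of all genes the second value was 0.26, within 2 SD. In control cells TNF-α moved it by −0.03, a value whose sign turned with the scaling (−0.06 to 0.02).

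Fosl1 encodes Fra-1, a Fos protein without the transactivation region, itself known as a target of AP-1. Its signals were 0.594 and 0.813 on the control arrays without and with TNF-α and 0.876 and 1.86 on the CKO arrays. The CKO array with TNF-α stood above the other 3, the control array with TNF-α and the CKO array without it differed by 0.11, within 2 SD (0.22), and the control array without TNF-α was lowest. TNF-α went with a difference of 0.45 (1.37-fold) in control cells and of 1.08 (2.12-fold) on the CKO arrays, 0.63 more. The second value was under the limit with no scaling (0.98), with the authors' values (0.97) and with normexp background correction (0.94). Relative to the median of all genes it was 1.02 under each of the 4 scalings. Apart from quantile normalization these differ only by 1 factor per array, which leaves such a relative value unchanged by construction. Between genotypes the difference was 0.56 (1.47-fold) without TNF-α and 1.19 (2.28-fold) with it. The spot on the control array with TNF-α lay in a bright patch with 9 bright neighbours; 46 repeated spots of like brightness in such patches on that array exceeded their probe's other spots by a median of 0.03, with a range from the 5th to the 95th percentile of −0.10 to 0.54. The TNF-α difference on the CKO arrays does not use that spot. The genotype difference with TNF-α does, and leaving out patch spots left it without a value; with normexp it was 0.98, under the limit.

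Fosl2 encodes Fra-2, which is needed for normal chondrocyte and osteoblast growth. It was read by the bright probe A_55_P1995195, at 11.7, 16.2, 13.4 and 15.3, highest on the control array with TNF-α. TNF-α went with 0.47 in control cells and 0.19 on the CKO arrays (2 SD, 0.16), the second falling to 0.13 relative to the median of all genes and to −0.18 as the mean of both its probes. The control value without TNF-α came from a spot with 12 bright neighbours, where repeated spots of like brightness exceeded their probe's other spots by a median of 0.00 (−0.12 to 0.06, 47 spots). A second Fosl2 probe, A_51_P507242, was near background on all arrays (0.0352, 0.0560, 0.0700 and 0.0481, the first not well above background), so this probe gave no settled order of the arrays (2 SD, 0.69; −0.54 for TNF-α on the CKO arrays and −0.22 between genotypes with TNF-α).

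In the Jun family, Jun, whose protein is activated by the JNK kinases and binds its own promoter, had signals of 10.5 and 12.9 on the control arrays and 9.63 and 15.5 on the CKO arrays. Both arrays with TNF-α were above both arrays without it. The TNF-α difference was 0.31 in control cells and 0.69 on the CKO arrays (1.61-fold; 0.63 relative to the median of all genes), each past 2 SD (0.15). Between genotypes Jun differed by −0.12 without TNF-α, within 2 SD, and by 0.26 with it. The stretch of the Jun promoter given above holds the element for Jun and Atf2 dimers, and Atf2 was among the partner genes of which none was called higher on the CKO arrays with TNF-α.

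Junb, a weaker activator than Jun that can oppose it, was the member with the largest TNF-α difference in control cells. Its signals were 0.373 and 0.672 on the control arrays and 0.438 and 0.487 on the CKO arrays. The control array with TNF-α was highest, and neighbours in the order of the other 3 did not differ beyond 2 SD. TNF-α went with 0.85 (1.80-fold) in control cells and 0.15 on the CKO arrays, 0.70 less and within 2 SD (0.29), and with TNF-α the CKO array was 0.47 below the control array. The high value came from a spot with 3 bright neighbours, the fewest that count as a patch; 30 repeated spots of like brightness in patches of that array exceeded their probe's other spots by a median of 0.10 (−0.08 to 0.71). The part of the patch in the Junb value was not tested.

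Jund, the broadly expressed Jun protein, was bright and level, at 24.3, 27.1, 25.5 and 27.7. Its largest difference was 0.16, for TNF-α in control cells (2 SD, 0.15), and neighbours in the order of its 4 levels did not differ beyond 2 SD. Its TNF-α difference on the CKO arrays, 0.12, turned to −0.03 after quantile normalization.

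Atf3, a stress-induced repressor that pairs with Jun proteins, did not differ by TNF-α in control cells, at 1.95 and 1.95. On the CKO arrays it was 1.44 and 2.01. The CKO array without TNF-α was thus the low one, 0.43 below its control and 0.48 below the CKO array with TNF-α (2 SD, 0.18), while the other 3 arrays lay within 0.04 of their neighbours. The TNF-α difference in control cells (0.00) and the genotype difference with TNF-α (0.04) changed sign with the scaling.

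Batf, which blocks transactivation by pairing with Jun proteins and is best known from lymphocytes, was read by 10 spots at 0.657, 0.645, 0.691 and 0.843. The CKO array with TNF-α was highest, 0.29 above the CKO array without it and 0.39 above the control array with TNF-α, where spots scattered with an SD of 0.04 to 0.06. In control cells the TNF-α difference was −0.03. The value on the CKO arrays was 0.23 relative to the median of all genes and 0.18 with no scaling.

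Maff, a small Maf protein that has no transactivation region and pairs with Fos and CNC proteins, had signals of 0.464 and 0.785 on the control arrays and 0.607 and 1.22 on the CKO arrays. Both arrays with TNF-α were above both without it, and every step in the order was past 2 SD (0.23). TNF-α went with 0.76 (1.69-fold) in control cells and 1.01 (2.01-fold) on the CKO arrays. The second value was at the limit: it was 0.95 relative to the median of all genes, and between 0.89 and 1.02 under the other settings. Between genotypes Maff differed by 0.39 without TNF-α and 0.64 with it. The lowest value, from the control array without TNF-α, came from a spot with 8 bright neighbours, where repeated spots of like brightness exceeded their probe's other spots by a median of 0.05 (−0.07 to 1.09, 50 spots).

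**Figure D2:**
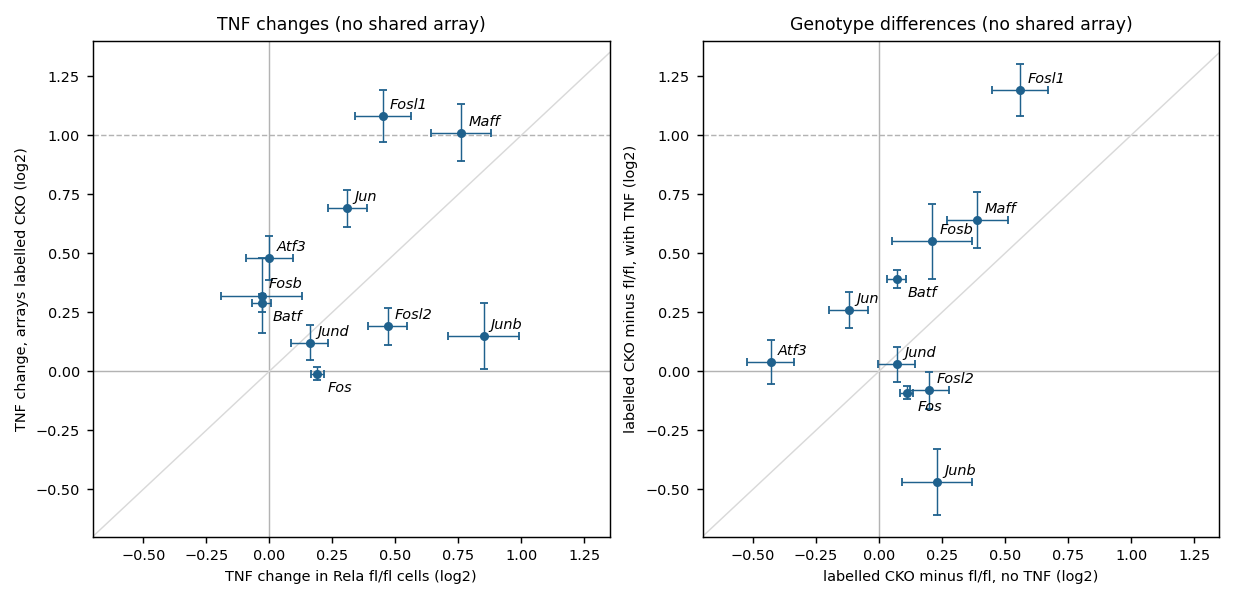
Left, TNF-α difference of each gene (log2) in Rela fl/fl cells (x axis) and on the arrays labelled CKO (y axis); right, difference between genotypes without (x axis) and with TNF-α (y axis). Bars are 1 technical SD of a difference, the dashed line is the limit of 1 and the grey diagonal is equality; the 2 axes of a panel share no array. Fosl1, Jun and Atf3 lie above the diagonal on the left and Junb and Fosl2 below it, and Fosl1 alone passes the limit on the right.

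The TNF-α value was higher on the CKO arrays than in control cells for 6 of the 10 genes (Fosl1 by 0.63, Atf3 by 0.47, Jun by 0.38, Fosb by 0.34, Batf by 0.31 and Maff by 0.25). For the other 4 the difference was below 0 (Junb −0.70, Fosl2 −0.28, Fos −0.20 and Jund −0.04). Whether any of these exceeds the spread between cultures was not tested, since each is a sum over 4 single arrays. The share of all genes with a higher TNF-α value on the CKO arrays is not given here. Of the 20481 genes detected on every array, 52.9% were above 0 with TNF-α in control cells and 63.7% on the CKO arrays. At a limit of 1.5-fold, TNF-α was called higher for Junb and Maff in control cells and for Fosl1, Jun and Maff on the CKO arrays, and the genotype difference with TNF-α for Fosl1 and Maff, but none between genotypes without TNF-α. Over all genes 4.37%, 2.49%, 4.52% and 7.16% were called higher at that limit in these comparisons.

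These counts are read against all genes on the arrays. In control cells 0 of 10 members was called in either direction with TNF-α, where 2.39% of 23406 genes compared were called higher and 4.26% lower. On the CKO arrays 2 of 10 were called higher with TNF-α and 0 lower (0 higher under the 3 settings named for Fosl1), where 0.759% of 24902 genes were called higher and 4.26% lower; among the 20481 genes well above background on all 4 arrays, as all members were, 0.386% were called higher. Between genotypes without TNF-α, 0 of 10 was called, where 3.53% of genes were higher and 4.14% lower on the CKO array. With TNF-α, 1 of 10 was called higher and 0 lower, where 1.17% were higher and 3.07% lower, or 0.723% higher among the 20481 genes detected on every array. The median of the members was 0.25, 0.30, 0.15 and 0.15 in the 4 comparisons in this order, beside 0.01, 0.06, 0.01 and 0.06 over all genes. Under the other settings these medians of the members ranged from 0.08 to 0.26, 0.19 to 0.37, 0.09 to 0.20 and 0.08 to 0.16 in the same order. The 0.08 in control cells came from leaving out patch spots, where 6 members had a value. Apart from the calls of Fosl1 and Maff, the differences of the members stayed under the limit.

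**Figure D3:**
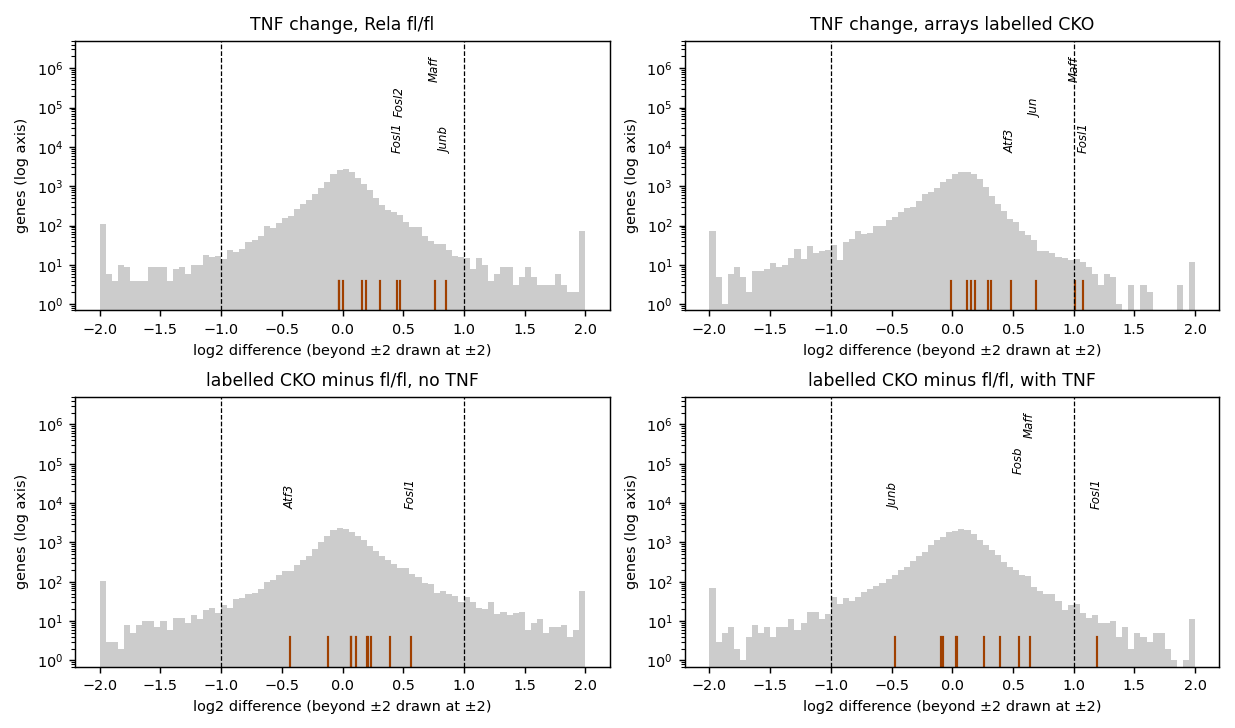
Histogram of the log2 differences of all 20481 genes well above background on the 4 arrays (grey, counts on a log axis) in each comparison, with the 10 genes as red ticks, named where they lie beyond 0.4 on either side; dashed lines mark the limit of 1. The members sit mostly to the right of the peak in both TNF-α panels, and Fosl1 and Maff reach the limit on the CKO arrays.

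On the rank scale, 0.293% of the 20481 genes had a TNF-α difference on the CKO arrays as high as that of Fosl1 or higher, 0.386% as high as that of Maff and 0.967% as high as that of Jun. In control cells the members nearest the upper edge were Junb (1.22%) and Maff (1.54%), with Fosl1 at 4.34%. For the genotype difference with TNF-α, Fosl1 was at 0.395% and Maff at 2.36%, and Junb, on the lower side, at 4.42%.

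The genes whose pattern over the 4 arrays was most like that of Fosl1, by the distance between log2 profiles centred on their own mean among 9660 genes with no patch spot, were Cd44 (distance 0.05), Plaur (0.14) and Hmga2-ps1 (0.14), and 11 genes lay within 0.3. Cd44, a receptor for hyaluronan, had signals of 4.55 and 6.30 on the control arrays and 7.02 and 14.4 on the CKO arrays. Plaur, the urokinase receptor, had 3.63, 5.08, 5.98 and 11.3. Both thus shared with Fosl1 the low control array without TNF-α and the high CKO array with it. Hmga2-ps1 is a pseudogene, and reads of a probe for it may come from its parent gene Hmga2. For Maff the nearest were Il4ra, an interleukin receptor chain (0.16), Spp1, the matrix protein osteopontin (0.20), and Irf5, an interferon regulatory factor (0.22), with 10 genes within 0.3. Spp1 had signals of 24.0, 42.1, 29.1 and 54.7, both arrays with TNF-α above both without. With 4 arrays many patterns are alike, and Cd44, Plaur and Spp1 also stand on the list of genes with known AP-1 sites below.

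**Figure D4:**
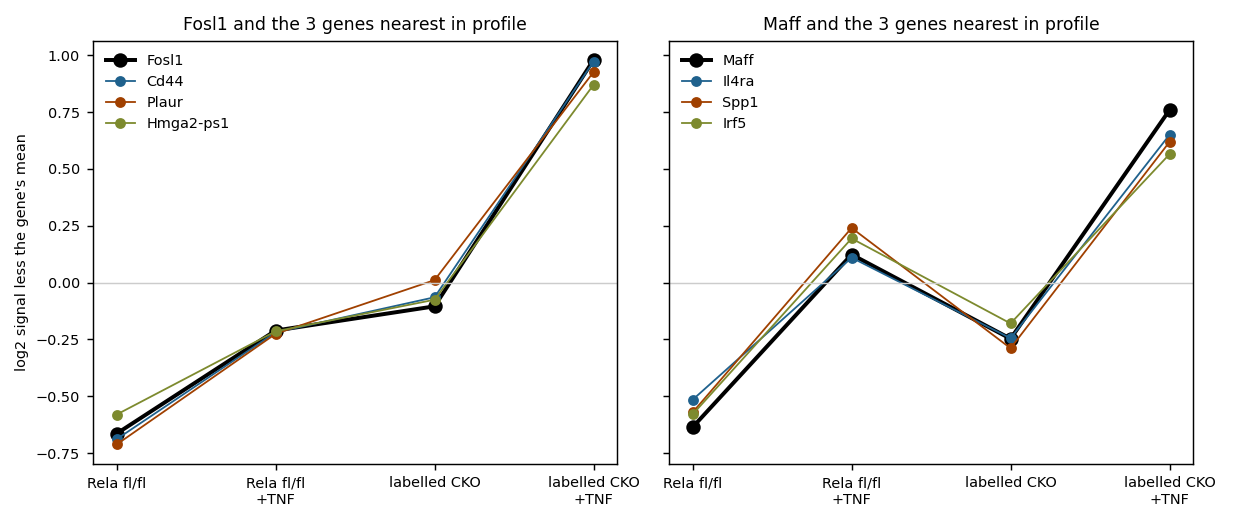
Log2 signal less the mean of the gene over the 4 arrays (y axis) for Fosl1 (left) and Maff (right, both black) and the 3 genes nearest to each; points are single arrays. Cd44 runs almost on top of Fosl1, and the genes nearest Maff are high on both arrays with TNF-α.

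Among 20 genes known to carry AP-1 sites in their control regions, 4 of 17 compared were called higher with TNF-α in control cells and 6 of 16 on the CKO arrays, with none lower, beside 2.39% and 0.759% of all genes called higher. In control cells these were the stromelysin Mmp3 (4.64), the collagenase Mmp13 (1.09), the chemokine Ccl2 (5.02) and the cytokine Il6 (at least 2.88, since only the control array with TNF-α was well above background). Those on the CKO arrays included Mmp3 (2.56), Ccl2 (3.17), Hbegf, a growth factor of the EGF family (1.15), Cd44 (1.04) and Mmp10 (1.03). Ccl2 and Mmp10 have a patch spot on at least 1 array. Between genotypes without TNF-α, 1 of 16 was higher on the CKO array (Mmp13, 1.04) and 1 lower (Mmp3, −1.30), beside 3.53% and 4.14% of all genes. With TNF-α the list divided (all genes, 1.17% higher and 3.07% lower): Cd44 (1.19), Hbegf (1.17), Plaur (1.15), Ccnd1, a cell cycle cyclin (1.04), and Ptgs2, the inducible cyclooxygenase (1.04), were higher on the CKO array, while Mmp3 (−3.37), Ccl2 (−1.85) and Il6 (a log2 bound of −3.71) were lower. Ptgs2 also has a patch spot. Mmp3, Ccl2, Il6 and Ptgs2 are known targets of NF-κB as well. This list and those below were chosen with earlier results of these data known, so their counts beside all genes are not a test.

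In the pathway above AP-1, of 22 MAP kinase genes 21 could be compared, and the single call with TNF-α in control cells, Map2k7 (2.65), and its mirror between genotypes (−2.48) rest on a patch spot. Map3k8, the kinase TPL2 that activates ERK in inflammation, was 0.97 higher with TNF-α in control cells and 1.08 lower on the CKO array than on the control array with TNF-α. None of the 21 was called with TNF-α on the CKO arrays or between genotypes without it. Of the MAP kinase phosphatases, which switch these kinases off, 0 of 9 compared was called with TNF-α in control cells (all genes, 2.39% higher). On the CKO arrays 1 of 11 was called higher with TNF-α (Dusp6, the ERK phosphatase, 1.04, with a patch spot), beside 0.759% of all genes. With TNF-α 3 of 11 were higher on the CKO array than on the control array, beside 1.17% of all genes. These were Dusp2 (1.53), Dusp9 (at least 1.26) and Dusp6 (1.01). Dusp2 and Dusp9 were dim on the control array with TNF-α (signals of 0.0438 and 0.0396), and Dusp9 was not well above background there, so that its value is a bound. Dusp1, a feedback phosphatase of p38 and JNK, had signals of 6.96, 10.8, 8.59 and 11.9, with TNF-α differences of 0.64 and 0.47.

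Of the other bZIP genes, 21 of 22 were measured and 1 was called higher with TNF-α in control cells (Batf2, at least 1.53, as the array without TNF-α was not well above background), the same gene being lower on the CKO array with TNF-α (−1.14). None of the 21 bZIP genes was called with TNF-α on the CKO arrays or between genotypes without TNF-α. Over all genes 2.39% were called higher with TNF-α in control cells and 3.07% lower between genotypes with TNF-α. Crem was 0.50 higher with TNF-α in control cells and 0.57 on the CKO arrays. None of the 9 genes of serum response factor and its partners, which drive transcription of Fos, was called in any comparison (medians 0.07 to 0.14). Of 19 other immediate early genes, 17 were compared, and the calls were for Egr4 alone, lower with TNF-α in control cells (a bound of −1.57) and higher on the CKO array with TNF-α (at least 1.56), since at signals between 0.0326 and 0.109 it was not well above background on the control array with TNF-α. Ier3 was the largest difference among the brighter ones with TNF-α in control cells (0.86).

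**Figure D5:**
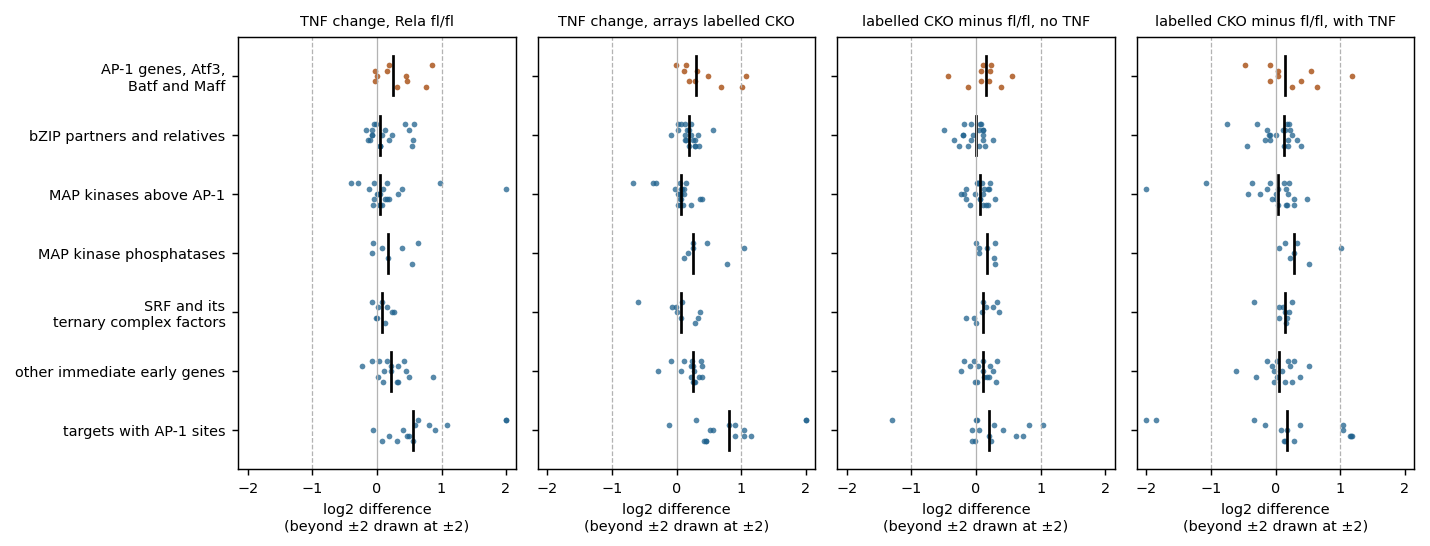
Log2 difference of the 10 genes (red) and of the genes of 6 lists (blue) well above background on all 4 arrays, in the 4 comparisons; black bars are medians, dashed lines the limit of 1, and points beyond 2 are drawn at 2. The genes with AP-1 sites spread widest, to both sides with TNF-α between genotypes, and the serum response factor list stays within the limit throughout.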

How the data were processed

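RNA of 4 conditions was hybridised to Agilent one-colour arrays. The deposited values are intensity of each spot from Agilent Feature Extraction 10.10.1.1 (the submitters' processing notes), with the processed signal background-subtracted by that software, per the file headers; the authors' value table of the same arrays holds these intensity values multiplied by 1 factor per array (1.77 to 1.83), whose basis is not given in the sources used here, and served as an alternative. From the deposited signals, spots with an outlier flag (138 to 225 an array) and control spots were left out, log2 signals were set relative to each array's 75th percentile, spots of a probe were averaged, and a gene was represented by its brightest probe on average. Where the dimmer of a pair of signals was not detected above background, the dimmest detected signal of its array was used if that was higher. Symbols come from the RefSeq table of GRCm38.p6, which named 20435 of 20809 mRNA accessions.

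With 1 array per condition no test was made. The number of arrays limits the precision. Alternatives were quantile normalization, no scaling, the authors' values, normexp background correction with offset 50 (limma 3.58.1, R 4.3.3), other filters, the mean of all probes, a 1.5-fold limit and leaving out patch spots. The script was tested on simulated data. The members and lists were chosen with earlier results of these data known. Other genes named are up to 4 a list with the largest difference among genes detected on every array without a patch spot, the 3 nearest genes of Fosl1 and Maff, Rela and Xist; further genes that make up a small count were named after their values were seen, and some genes of the lists are not reported here by name. Genes of the cell type lists were used only as given in the report.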

Additional observations from a re-analysis of the deposited data

Results flagged for a closer look

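Of the named genes well above background on all 4 arrays, 4 had TNF-α differences of opposite sign in the genotypes, each past 0.27 (2 technical SD over probes of any brightness), with each value from a single pair of arrays and the difference between them not tested. Map3k8 was 0.97 in control cells and −0.32 on the CKO arrays; it is dim, and the dim second Fosl2 probe had 2 SD of 0.69, so the second value is not shown to pass its own. Thy1, a fibroblast surface marker, was −0.69 and 0.63. The cartilage genes Matn1 (−0.29 and 0.38) and Snorc (−0.36 and 0.29) went the same way as Thy1, down in control cells and up on the CKO arrays. Egr4, not well above background on the control array with TNF-α, had −1.57, a bound, and 0.46. None of the 10 AP-1, Atf3, Batf and Maff genes had values of opposite sign past 2 technical SD.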

How the results depend on the processing

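No paired analysis was possible because each condition has 1 array. The count of members called with TNF-α on the CKO arrays was 2 under quantile normalization and 3 at a 1.5-fold limit (all genes, 2.49%). It was 0 with no scaling, with the authors' values and with normexp, where Fosl1 lay between 0.94 and 0.98 and Maff between 0.89 and 0.94. Both other filters, the mean of all probes and leaving out patch spots also gave 2, but could not change these calls. Fosl1 and Maff have 1 probe each, detected on every array and outside patches on the CKO arrays. The genotype count with TNF-α was 1 under 6 alternatives, of which both other filters and the mean of all probes could not change the Fosl1 call. It was 0 with normexp (Fosl1 0.98) and 2 at a 1.5-fold limit (all genes, 4.52%). It was also 0 without patch spots, where 8 members were compared and Fosl1 had no value. In control cells TNF-α gave 2 members at a 1.5-fold limit (all genes, 4.37%) and 0 under the other 8 alternatives, and without patch spots the median of the members fell from 0.25 to 0.08 over the 6 left, since Fosl1, Fosl2, Junb and Maff had no value. Between genotypes without TNF-α no member was called under any alternative. Of 338 values of single member probes under the alternatives, 294 stayed within 1 technical SD of the value reported for that probe. The remaining 44 went further. Many of the 294 could not move, since the filters and the mean of all probes leave a gene with 1 probe detected on every array as it is. Of 40 differences (10 genes, 4 comparisons) 6 turned sign, none of them a called one: Fosl2 with TNF-α on the CKO arrays (0.19 to −0.18 as the mean of its probes, where its genotype value without TNF-α went from 0.20 to 0.60), Jund in 3 comparisons (to −0.03, −0.01 and −0.04 at the lowest), Fosb with TNF-α in control cells (to 0.02) and Atf3 between genotypes with TNF-α (to −0.03). Atf3 with TNF-α in control cells is not among the 6, since its reported value rounded to 0.00 (−0.03 to 0.01 under the scalings). Junb with TNF-α in control cells ranged from 0.69 to 0.88, Maff from 0.62 to 0.80, and Jun on the CKO arrays from 0.57 to 0.69. Dim members such as Fosb and Junb carry the larger technical error.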
